A study of Mus musculus with 6 samples.

Results

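The genes described here are 37 markers of fibroblasts and structural or regulatory proteins of the extracellular matrix other than collagens, measured in whole mammary tumours with and without serglycin. They were chosen by name, with earlier results of these data known. Of the 37, 35 had a probe set that the array's annotation gives to that gene alone, out of 22180 genes measured. Fbn1 was not among the genes matched, and both probe sets of Loxl2 are shared with Gm21451, so neither was analysed. Each of the 35 genes had 1 such probe set.

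Fibroblasts of the mammary gland and of mammary tumours lay down and remodel the matrix around epithelial cells. Resident fibroblasts carry the receptor PDGFRA, and those near vessels or in fascia are marked by genes such as Pi16, Dpt and Clec3b, while activated fibroblasts of tumours express Fap, Postn and Tnc. Their non-collagen products include elastin, fibrillin and fibulin microfibrils, lysyl oxidases that cross-link collagen and elastin, and matricellular proteins that modulate adhesion. They also secrete chemokines, the alarmin IL-33 and the growth factor IGF-1.

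All 6 tumours came from PyMT+ mice, which carry the middle T oncogene of polyoma virus and develop mammary tumours. Of the tumours, 3 came from SG-/- mice, which lack the proteoglycan serglycin, and 3 from SG+/- mice, which keep 1 allele, so no group has the full gene dose. Each tumour was from a separate mouse by the labels, with 1 array per tumour. Mouse strain, age, the promoter of the transgene and the part of the serglycin gene removed were not stated in the labels or the design text. Values are log2 expression per probe set, normalised by the authors over the arrays, so a difference of 1 is a doubling. Since each probe set binds its own probes, levels are compared between tumours and not between genes. All differences are SG-/- minus SG+/-.

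The labels were checked on the targeted gene. Srgn stood at 5.07, 5.04 and 4.89 in SG-/- replicates 1 to 3 and at 6.76, 6.43 and 6.35 in SG+/- replicates 1 to 3. The groups did not overlap. The SG-/- values lay under 6.09, the 40th percentile of all probe sets, called the dim level here, and so near the background of the arrays. The difference had an unadjusted limma p of 2.1e-05 and an adjusted p of 0.467 over all genes, and an exact permutation test (two-sided) gave p = 0.1, the lowest that 3 against 3 can give.

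Arrays differed in their spread. The interquartile range over probe sets ran from 2.56 in SG-/- replicate 3 to 3.15 in SG-/- replicate 1, and the mean of 1390 olfactory and vomeronasal receptor genes, which are taken to be silent in this tissue, from 5.87 to 4.58 in the same arrays. SG+/- replicate 1 had a receptor mean of 4.58 and an interquartile range of 3.09, close to SG-/- replicate 1. In the labelled tissue, the epithelial adhesion molecule Epcam lay between 12.09 and 12.24 in all 6 tumours. Of the 35 fibroblast and matrix genes, 34 had a mean above the dim level, all but the transcription factor gene Tcf21. The same was true of 67.0% of all genes and of 22.9% of the receptor genes, so a mean above that level does not by itself show expression. Salivary gland genes were also detected. Bpifa2 stood at 13.54 and 13.64 in SG-/- replicates 1 and 3, at 7.26 in SG-/- replicate 2, and at 5.98 to 6.47 in SG+/- tumours. Over the 8 salivary genes listed, 5 were higher and 3 lower in SG-/- tumours, with differences from -2.54 to 5.27. Dcpp2, named after its values were seen, had the difference of -2.54 with no overlap, though the nearest tumours were almost level. The medians of the 8 against the SG+/- mean were 2.38, -0.20 and 1.59 in SG-/- tumours and -0.42, 0.11 and 0.32 in SG+/- tumours, and their part in the results was not tested.

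Fibroblast and matrix genes were mostly higher in SG-/- tumours, but SG-/- replicate 1 carried most of the difference. Of the 35 genes, 33 had a mean above that of SG+/- tumours, or 94.3%, while 46.3% of all genes did. Among genes above the dim level, to which 34 of the 35 belong, the share was 42.2%. The median difference was 0.39, which is 1.31-fold, against -0.01 over all genes. The series description reports that nearly all altered genes of the whole array were lower in SG-/- tumours, at a threshold of its own, so its set of genes is unlike this list. Over all genes in the deposited values, 317 were higher and 152 lower at an unadjusted limma p under 0.05. Other counts leaned the other way. By direction alone, 10272 were higher and 11908 lower, and with no overlap between genotypes 630 were higher and 708 lower. Whether the sign in the description is reversed is not known here, and counts at unlike thresholds cannot tell. Taken per tumour against the mean of the SG+/- group, the median gene stood at 0.91, 0.16 and 0.05 in the SG-/- tumours, replicates 1 to 3. In SG+/- replicates 1 to 3 it was 0.12, -0.0098 and -0.03. Over genes above the dim level, the medians were 0.05, 0.01 and -0.17 in SG-/- tumours and 0.04, -0.01 and -0.02 in SG+/- tumours. SG-/- replicate 1 thus stood apart. The median of the 35 genes in SG-/- replicate 3 lay below that in SG+/- replicate 1. In SG-/- replicate 3, 60.0% of the 35 genes lay above the SG+/- mean, against 29.1% of genes above the dim level. Without SG-/- replicate 1, the median difference was 0.17 and 23 of 35 genes were higher, or 65.7%, against 46.8% of all genes. Among genes above the dim level the share was then 35.5%.

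**Figure D1:**
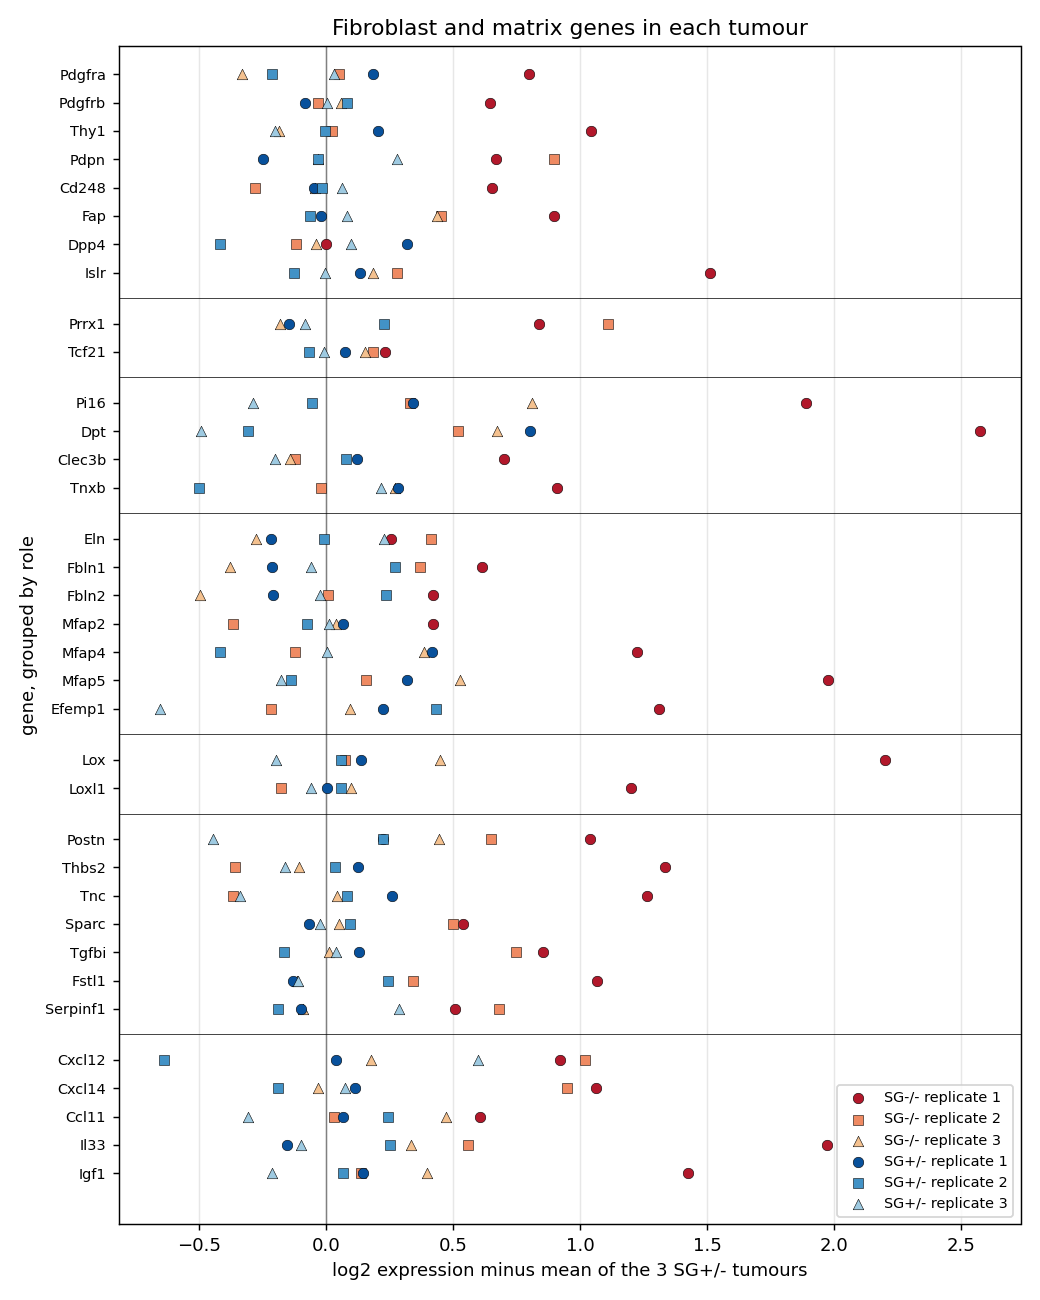
Log2 expression of the 35 fibroblast and matrix genes in each of the 6 tumours, as the difference from the mean of the 3 SG+/- tumours (horizontal axis), with genes grouped by role on the vertical axis and 1 point per tumour. SG-/- replicate 1 is the highest of the 6 tumours in 29 genes, with Dpt 2.57 above the SG+/- mean.

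None of the 35 genes passed the test after adjustment over all 22180 genes (limma with Benjamini-Hochberg adjustment, 0 genes or 0.0% called in all, lowest adjusted p among the 35 of 1.00). At an unadjusted limma p of 0.05, 469 of all genes passed. Among the fibroblast and matrix genes there were 3, Fap, Pi16 and Postn, all higher in SG-/- tumours. They are 8.57% of the 35, where 1.43% of all genes passed on the higher side and 0.685% on the lower. SG-/- values all lay above SG+/- values in 5 genes, Fap, Islr, Tcf21, Postn and Il33, which are 14.3% of the 35, against 2.84% of all genes on that side and 3.19% on the lower side, where the list had 0. Leaving out tumours moved both counts. For the unadjusted p, 1 gene passed with SG-/- replicate 1 omitted (background 0.906%), 9 with SG-/- replicate 2 omitted (1.47%) and 12 with SG-/- replicate 3 omitted (3.91%). Omitting SG+/- tumours gave 4 for replicate 1 (1.25%), 2 for replicate 2 (1.03%) and 2 for replicate 3 (0.852%). For genes with all SG-/- values above the SG+/- values, the counts were 5 (4.84%), 11 (7.05%) and 15 (12.5%) when SG-/- replicates 1, 2 and 3 were omitted in turn, and 10 (6.23%), 6 (5.08%) and 7 (5.42%) for the SG+/- replicates. Without SG+/- replicate 2, Dpp4 lay wholly lower in SG-/- tumours, as did 7.78% of all genes. The genes share the same tumours, so these shares are not independent counts. In whole tumours, more fibroblasts, more RNA per fibroblast and RNA from other cells that express some of these genes cannot be told apart.

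**Figure D2:**
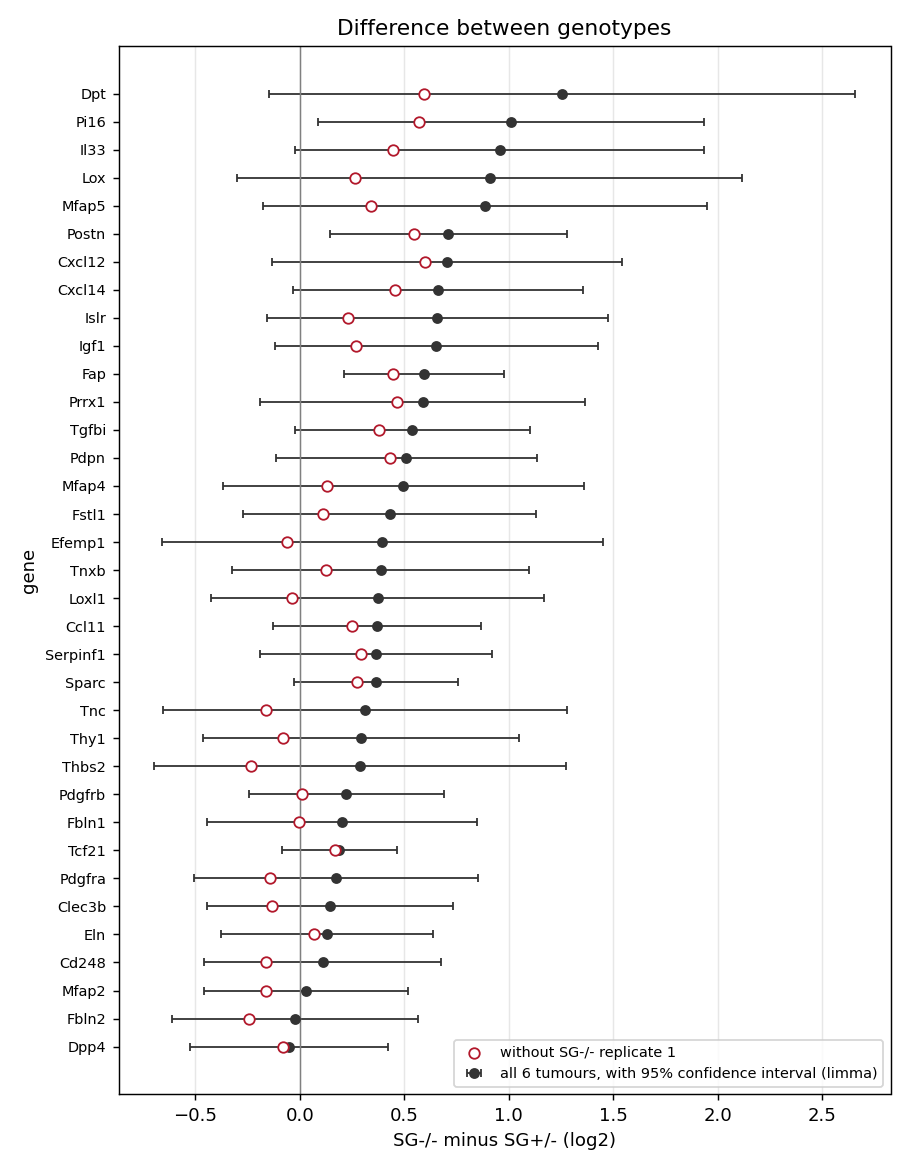
Difference between genotypes for each of the 35 genes, SG-/- minus SG+/- on the log2 scale, as filled points with limma 95% confidence intervals over 6 tumours and as open points without SG-/- replicate 1. Intervals exclude 0 only for Fap, Pi16 and Postn, and 12 open points lie below 0.

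The genes followed several patterns across the tumours. In 29 of the 35, or 82.9%, SG-/- replicate 1 was the highest of the 6 tumours, against 20.1% of all genes and 25.6% of genes above the dim level. SG-/- replicate 2 was the highest in 5, and SG+/- replicate 1 in Dpp4. In 15 genes, or 42.9%, SG-/- replicates 1 and 2 both lay above the other 4 tumours. The share was 11.0% of all genes and 15.3% of genes above the dim level. The 15 were Pdpn, Fap, Islr, Prrx1, Tcf21, Eln, Fbln1, Postn, Sparc, Tgfbi, Fstl1, Serpinf1, Cxcl12, Cxcl14 and Il33. In Pi16, Mfap5, Lox, Loxl1, Igf1 and Ccl11, SG-/- replicates 1 and 3, but not replicate 2, lay above every SG+/- tumour. In all others but Dpp4, SG-/- replicate 1 was the only SG-/- tumour above every SG+/- tumour. They were Pdgfra, Pdgfrb, Thy1, Cd248, Dpt, Clec3b, Tnxb, Fbln2, Mfap2, Mfap4, Efemp1, Thbs2 and Tnc. The patterns were read off the values and describe these 6 tumours.

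**Figure D3:**
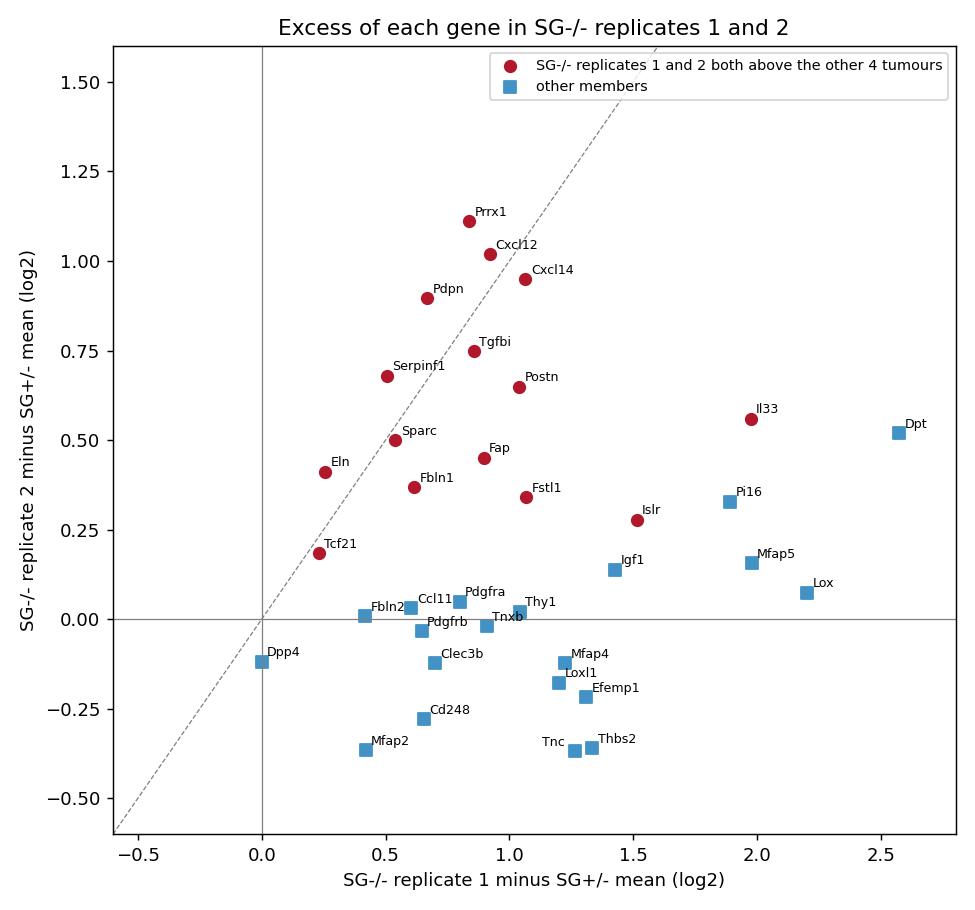
Excess over the SG+/- mean, on the log2 scale, in SG-/- replicate 1 (horizontal axis) and SG-/- replicate 2 (vertical axis), with 1 point per gene and a dashed line where both are equal. Prrx1, Pdpn, Serpinf1, Cxcl12 and Eln lie above the line, while Thbs2 and Tnc are 1.33 and 1.26 above the SG+/- mean in replicate 1 and differ by -0.36 and -0.37 from it in replicate 2.

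The promoters of genes that stand for these patterns are printed as the 250 bases before the transcription start, from RefSeq on the mouse assembly GRCm38.p6, 5′ to 3′ on the strand of the gene. Dpt and Pi16 stand for genes with their highest level in SG-/- replicate 1 and the largest differences, Islr for genes that did not overlap between genotypes, and Prrx1 and Cxcl14 for genes high in SG-/- replicates 1 and 2. Capitals mark matches, on either strand, to the TATA box (TATAAA), an AP-1 site (TGANTCA), a homeodomain core (TAATTA), an E-box (CAGCTG) or a TEAD site (GGAATG).
Dpt promoter, chr1:164796413-164796662, plus strand: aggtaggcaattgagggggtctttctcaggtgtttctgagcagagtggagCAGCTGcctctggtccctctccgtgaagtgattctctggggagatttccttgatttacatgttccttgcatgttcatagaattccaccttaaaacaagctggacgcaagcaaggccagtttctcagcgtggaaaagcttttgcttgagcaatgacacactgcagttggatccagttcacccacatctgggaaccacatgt
Pi16 promoter, chr17:29318632-29318881, plus strand: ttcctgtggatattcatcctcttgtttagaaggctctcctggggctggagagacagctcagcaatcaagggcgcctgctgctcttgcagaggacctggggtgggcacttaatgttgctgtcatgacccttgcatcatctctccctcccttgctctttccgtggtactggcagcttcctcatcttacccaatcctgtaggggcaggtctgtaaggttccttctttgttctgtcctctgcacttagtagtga
Islr promoter, chr9:58158555-58158804, minus strand: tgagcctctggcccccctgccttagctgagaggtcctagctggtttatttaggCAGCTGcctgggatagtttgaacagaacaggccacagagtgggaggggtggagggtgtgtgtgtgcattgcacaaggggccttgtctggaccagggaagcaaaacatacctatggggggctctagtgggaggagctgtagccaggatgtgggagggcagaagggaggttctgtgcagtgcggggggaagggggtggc
Prrx1 promoter, chr1:163313651-163313900, minus strand: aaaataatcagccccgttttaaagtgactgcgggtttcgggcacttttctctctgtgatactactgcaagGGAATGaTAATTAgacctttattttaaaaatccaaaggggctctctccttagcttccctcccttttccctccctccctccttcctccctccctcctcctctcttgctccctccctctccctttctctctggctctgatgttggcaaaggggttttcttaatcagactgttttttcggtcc
Cxcl14 promoter, chr13:56296552-56296801, minus strand: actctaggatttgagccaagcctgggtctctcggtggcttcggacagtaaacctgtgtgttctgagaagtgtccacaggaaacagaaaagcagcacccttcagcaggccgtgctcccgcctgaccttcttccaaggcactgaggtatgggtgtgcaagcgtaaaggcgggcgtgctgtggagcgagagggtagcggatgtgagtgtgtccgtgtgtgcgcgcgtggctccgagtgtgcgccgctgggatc

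Dpt and Islr each held 1 E-box CAGCTG, Prrx1 a TEAD site next to a homeodomain core, and Pi16 and Cxcl14 none of the 5 motifs. RefSeq promoters were found for 24 of the 35 genes, with 29 starts. The E-box was present before 5 of those 29 starts and before 13.0% of 32851 starts of all genes. The TEAD site was present before 5 and 12.6%, the TATA box before 7 and 12.4%, the AP-1 site before 3 and 6.75%, and the homeodomain core before 2 and 4.84%. Starts of 1 gene can overlap, and a match is only a match of letters.

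Among surface markers and receptors, 7 of 8 genes had the higher mean in SG-/- tumours. The median was 0.26, and 1 of 8 had an unadjusted p under 0.05. Fap, a membrane protease of activated fibroblasts, stood at 8.0, 7.56 and 7.54 in SG-/- replicates 1 to 3 and at 7.08, 7.04 and 7.19 in SG+/- replicates 1 to 3. The genotypes did not overlap, and the SG-/- tumours were 0.90, 0.45 and 0.44 above the SG+/- mean. The Fap difference was 0.59 (SE 0.16, 95% confidence interval from 0.21 to 0.98, limma adjusted p = 1.00), which is 1.51-fold. Fap kept an unadjusted p under 0.05 with any 1 tumour left out, and its difference then lay between 0.44 and 0.67.

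Islr, an immunoglobulin and leucine-rich repeat protein of mesenchymal cells whose promoter is printed above, stood at 9.06, 7.82 and 7.73 in SG-/- tumours and at 7.68, 7.42 and 7.54 in SG+/- tumours. The groups did not overlap, but the lowest SG-/- and the highest SG+/- tumour were 0.05 apart. The Islr difference was 0.66 (SE 0.35, 95% confidence interval from -0.16 to 1.48), and 0.23 without SG-/- replicate 1. Pdpn, the mucin-like glycoprotein podoplanin, stood at 8.55, 8.78 and 7.85 in SG-/- tumours and at 7.64, 7.86 and 8.17 in SG+/- tumours. SG-/- replicates 1 and 2 were high and SG-/- replicate 3 was within the SG+/- range. Its difference was 0.51 (SE 0.26, 95% confidence interval from -0.11 to 1.14).

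The growth factor receptor genes that define fibroblasts and mural cells had differences of 0.17 and 0.22. Pdgfra stood at 8.96, 8.21 and 7.83 in SG-/- tumours and at 8.34, 7.94 and 8.19 in SG+/- tumours. SG-/- tumours were the highest and the lowest of the 6, so the groups overlapped widely, and the difference was 0.17 (SE 0.29, 95% confidence interval from -0.51 to 0.85). Pdgfrb, Thy1, a surface glycoprotein of stromal cells and T cells, and Cd248, also called endosialin, were each highest in SG-/- replicate 1, by 0.65, 1.04 and 0.65 above the SG+/- mean. Their differences were 0.22, 0.29 and 0.11 over all tumours and 0.01, -0.08 and -0.16 without that tumour. Dpp4, a dipeptidyl peptidase of fascia fibroblasts that epithelial and immune cells also make, stood at 9.18, 9.06 and 9.14 in SG-/- tumours and at 9.50, 8.76 and 9.28 in SG+/- tumours. The SG-/- values lay within the SG+/- range, and the difference was -0.05 with a 95% confidence interval from -0.53 to 0.42.

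Both transcription factor genes were higher in SG-/- tumours, and neither passed the test. Prrx1, a homeodomain factor of mesenchyme, stood at 8.29, 8.56 and 7.27 in SG-/- tumours and at 7.31, 7.68 and 7.37 in SG+/- tumours. SG-/- replicate 3 was the lowest of the 6, and the difference of 0.59 had a standard error of 0.33 (95% confidence interval from -0.19 to 1.37). Without SG-/- replicate 3 it was 0.97 (limma adjusted p = 0.645). Tcf21, a basic helix-loop-helix factor of stromal progenitors, stood at 6.00, 5.95 and 5.92 in SG-/- tumours and at 5.84, 5.70 and 5.76 in SG+/- tumours. The groups did not overlap, but all 6 values lay under the dim level of 6.09, and the difference was 0.19 (SE 0.12, 95% confidence interval from -0.09 to 0.46).

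The genes of adventitial fibroblasts held the largest differences, and 1 of 4 had an unadjusted p under 0.05. Dpt, which encodes dermatopontin, a small matrix protein that binds collagen and decorin, stood at 10.64, 8.59 and 8.74 in SG-/- tumours and at 8.87, 7.76 and 7.58 in SG+/- tumours. SG+/- replicate 1 lay above SG-/- replicates 2 and 3. The Dpt difference was 1.26 (SE 0.59, 95% confidence interval from -0.15 to 2.66), and 0.60 without SG-/- replicate 1. Pi16, a peptidase inhibitor that marks adventitial fibroblasts, stood at 8.55, 6.99 and 7.47 in SG-/- tumours and at 7.01, 6.61 and 6.38 in SG+/- tumours. The groups touched, with SG-/- replicate 2 just under SG+/- replicate 1. The Pi16 difference was 1.01 (SE 0.39, 95% confidence interval from 0.09 to 1.93, limma adjusted p = 1.00), or 2.01-fold, and 0.57 without SG-/- replicate 1. With 1 tumour left out, its unadjusted p was under 0.05 without SG-/- replicate 2 or SG+/- replicate 1 and above it otherwise.

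The other genes of this group had smaller differences. Tnxb, the matrix glycoprotein tenascin-X, stood at 7.80, 6.88 and 7.17 in SG-/- tumours and at 7.18, 6.39 and 7.11 in SG+/- tumours. Clec3b, the plasminogen-binding protein tetranectin, stood at 7.11, 6.29 and 6.27 in SG-/- tumours and at 6.54, 6.49 and 6.21 in SG+/- tumours. In both, SG-/- replicate 1 was the highest tumour and the others overlapped. The Tnxb difference was 0.39 (SE 0.30) and the Clec3b difference 0.15 (SE 0.25), and without SG-/- replicate 1 they were 0.13 and -0.13. SG+/- replicate 1 was the highest SG+/- tumour in Dpt, Pi16, Clec3b and Tnxb.

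Of 7 elastic fibre and microfibril genes, 6 were higher in SG-/- tumours (median 0.20), and 0 had an unadjusted limma p under 0.05. Mfap5, a microfibril glycoprotein that binds fibrillin, stood at 10.50, 8.68 and 9.05 in SG-/- tumours and at 8.84, 8.38 and 8.34 in SG+/- tumours. SG-/- replicate 1 was 1.98 above the SG+/- mean, and SG-/- replicate 2 lay within the SG+/- range. The Mfap5 difference was 0.89 (SE 0.45, 95% confidence interval from -0.17 to 1.95), and 0.34 without SG-/- replicate 1. Mfap4, a fibrinogen-domain protein of elastic fibres, stood at 8.16, 6.81 and 7.31 in SG-/- tumours and at 7.35, 6.51 and 6.93 in SG+/- tumours, a difference of 0.50. Efemp1, the fibulin-3 gene, stood at 9.14, 7.61 and 7.92 in SG-/- tumours and at 8.05, 8.26 and 7.17 in SG+/- tumours, a difference of 0.40. In both, SG-/- replicates 2 and 3 lay within the SG+/- range, and without SG-/- replicate 1 the differences were 0.13 and -0.06.

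The elastin and fibulin genes were nearly level between genotypes or varied as widely within them. Fbln2, a basement membrane and elastic fibre fibulin, stood at 9.85, 9.44 and 8.94 in SG-/- tumours and at 9.22, 9.67 and 9.41 in SG+/- tumours. SG-/- tumours were both the highest and the lowest, and the difference was -0.02 with a 95% confidence interval from -0.61 to 0.56. It was 0.02 after a further quantile normalization and 0.07 with array weights, so its direction is not settled. Eln, the elastin gene, differed by 0.13 and Fbln1 by 0.20, and both were lowest in SG-/- replicate 3. Mfap2, another microfibril glycoprotein, differed by 0.03 and was highest in SG-/- replicate 1 and lowest in SG-/- replicate 2.

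The lysyl oxidase genes were highest in SG-/- replicate 1, and 0 of 2 had an unadjusted p under 0.05. Lox, which encodes the enzyme that starts cross-links in collagen and elastin, stood at 10.53, 8.40 and 8.78 in SG-/- tumours and at 8.46, 8.38 and 8.13 in SG+/- tumours. The excess of SG-/- replicate 1 over the SG+/- mean was 2.20, which is 4.60-fold. The Lox difference was 0.91 (SE 0.51, 95% confidence interval from -0.30 to 2.12), and 0.26 without that tumour. SG-/- replicates 2 and 3 were 0.07 and 0.45 above the SG+/- mean. Loxl1, a lysyl oxidase of elastic fibres, stood at 9.73, 8.36 and 8.63 in SG-/- tumours and at 8.54, 8.59 and 8.47 in SG+/- tumours. SG-/- replicate 2 was the lowest of the 6, and the difference was 0.37 (SE 0.34), or -0.04 without SG-/- replicate 1.

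Matricellular and other secreted matrix genes were higher in SG-/- tumours in 7 of 7 cases (median 0.36), and 1 had an unadjusted p under 0.05. Postn, which encodes periostin, a protein of remodelling stroma, stood at 12.58, 12.19 and 11.99 in SG-/- tumours and at 11.76, 11.76 and 11.09 in SG+/- tumours. The groups did not overlap, with SG+/- replicate 3 below the rest. The Postn difference was 0.71 (SE 0.24, 95% confidence interval from 0.14 to 1.28, limma adjusted p = 1.00), or 1.64-fold. Without SG-/- replicate 1 it was 0.55 and without SG+/- replicate 3 it was 0.49, both with an unadjusted p above 0.05.

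A further set of secreted genes was high in SG-/- replicates 1 and 2. Tgfbi, a TGF-beta-induced adhesion protein, stood at 10.21, 10.11 and 9.37 in SG-/- tumours and at 9.49, 9.19 and 9.40 in SG+/- tumours. Sparc, a collagen-binding protein also made by endothelium, stood at 11.06, 11.02 and 10.57 in SG-/- tumours and at 10.45, 10.62 and 10.50 in SG+/- tumours. In both, SG-/- replicate 3 lay within the SG+/- range. The Tgfbi difference was 0.54 (SE 0.24, 95% confidence interval from -0.02 to 1.10) and the Sparc difference 0.36 (SE 0.17, 95% confidence interval from -0.03 to 0.76). Without SG-/- replicate 3 they were 0.80 and 0.52 (limma adjusted p = 0.645 and 0.677). Serpinf1, which encodes the pigment epithelium-derived factor that inhibits vessel growth, and Fstl1, a follistatin-like glycoprotein, differed by 0.36 and 0.43.

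The thrombospondin and tenascin genes behaved otherwise. Thbs2, an inhibitor of vessel growth, stood at 10.81, 9.11 and 9.37 in SG-/- tumours and at 9.60, 9.51 and 9.31 in SG+/- tumours. Only SG-/- replicate 1 was high, and SG-/- replicate 2 was the lowest of the 6. The Thbs2 difference was 0.29 (SE 0.42), and -0.23 without SG-/- replicate 1. Tnc, the tenascin-C gene, differed by 0.31, and by -0.16 without that tumour.

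All 5 genes of chemokines, cytokines and growth factors had the higher mean in SG-/- tumours (median 0.66), and 0 had an unadjusted limma p under 0.05. Each gene of the group stayed higher without SG-/- replicate 1, 5 of 5, with a median of 0.45. Of genes above the dim level, 35.5% were higher then. Both transcription factor genes stayed higher too. Tcf21 lay under the dim level, however, and 84.7% of the receptor genes taken to be silent were also higher without that tumour. Also higher without it were 11 of 11 endothelial and 11 of 11 macrophage markers, lists that are described below. Il33, an alarmin held in the nuclei of stromal and endothelial cells, stood at 9.98, 8.56 and 8.34 in SG-/- tumours and at 7.85, 8.26 and 7.91 in SG+/- tumours. The groups did not overlap, with 0.08 between the nearest tumours. The Il33 difference was 0.96 (SE 0.41, 95% confidence interval from -0.02 to 1.93), or 1.94-fold, and 0.45 without SG-/- replicate 1.

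Cxcl14, a chemokine of epithelium and fibroblasts, stood at 10.47, 10.35 and 9.37 in SG-/- tumours and at 9.52, 9.21 and 9.48 in SG+/- tumours. SG-/- replicates 1 and 2 were about 1 above the SG+/- mean, at 1.06 and 0.95, and SG-/- replicate 3 was -0.03 from it. The Cxcl14 difference was 0.66 (SE 0.29, 95% confidence interval from -0.03 to 1.35), and without SG-/- replicate 3 it was 1.01 (limma adjusted p = 0.645). Cxcl12, the ligand of the receptor CXCR4, was also high in SG-/- replicates 1 and 2, at 9.04 and 9.14, with SG-/- replicate 3 at 8.30. It varied widely in SG+/- tumours, at 8.16, 7.48 and 8.72. Its difference was 0.71 (SE 0.35).

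Igf1, which encodes insulin-like growth factor 1, stood at 8.59, 7.30 and 7.56 in SG-/- tumours and at 7.31, 7.23 and 6.95 in SG+/- tumours. SG-/- replicate 1 was high and SG-/- replicate 2 was within the SG+/- range, and the difference of 0.65 (SE 0.33) was 0.27 without replicate 1. Ccl11, the chemokine eotaxin that attracts eosinophils, stood at 8.41, 7.83 and 8.28 in SG-/- tumours and at 7.87, 8.05 and 7.49 in SG+/- tumours. Here SG-/- replicates 1 and 3 were high, and the difference was 0.37 (SE 0.21).

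The genes varied together across the tumours, and this too rested on SG-/- replicate 1. Over 595 pairs of the 35 genes, the median Pearson r across the 6 tumours was 0.67, and 67.9% of pairs had an r above 0.5. Over all pairs of 22180 genes the median was 0.0060 and 22.9% were above 0.5, and over pairs of the 14860 genes above the dim level they were 0.18 and 29.0%. With the mean of each genotype taken out of each gene, the median among the 35 was 0.62, against 0.015 over all genes. Without SG-/- replicate 1, the median r among the 35 over the remaining 5 tumours was 0.09, with 25.7% of pairs above 0.5, against 25.2% over all genes. With any other single tumour left out, it lay between 0.69 and 0.81. Pairs share the same tumours and arrays, and r over 6 points is imprecise.

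**Figure D4:**
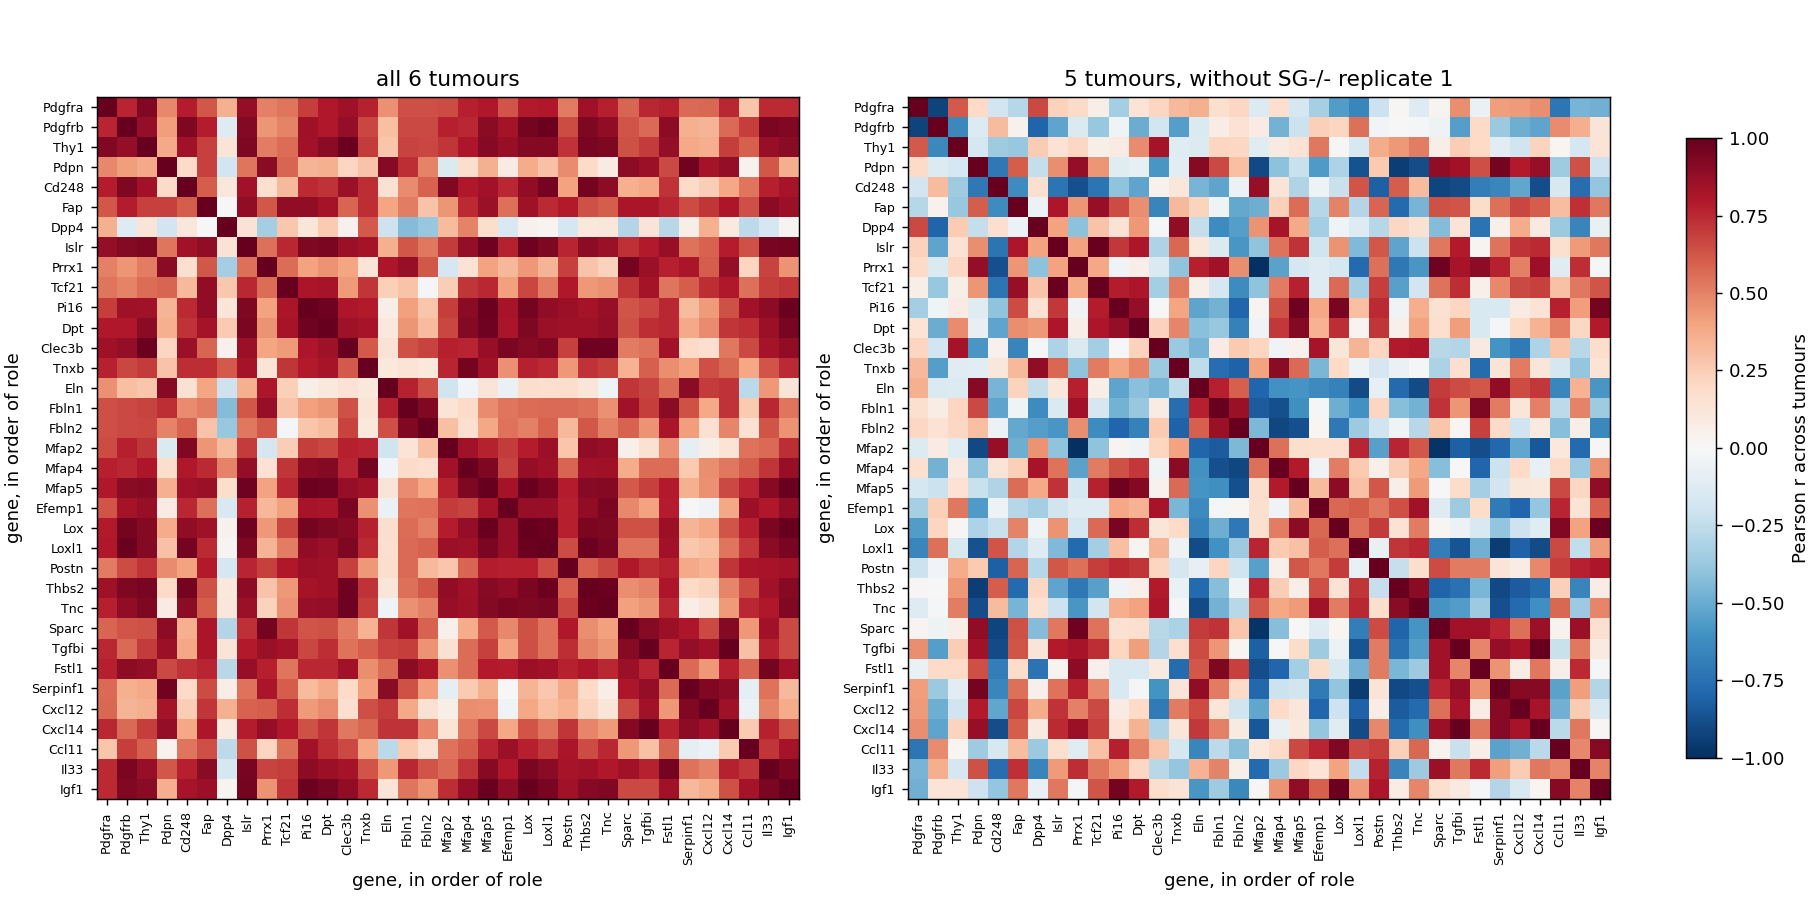
Pearson r between each pair of the 35 genes over all 6 tumours (left) and over 5 tumours without SG-/- replicate 1 (right), with genes in the order of their roles on both axes and colour from -1 to 1. On the left 4.20% of pairs are below 0 and the median is 0.67, while on the right 43.4% are below 0 and the median is 0.09.

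Single pairs kept their relation without that tumour. Tgfbi and Cxcl14 had an r of 1.00 with all 6 tumours and with 5, Lox and Igf1 0.99 and 0.98, and Pi16 and Mfap5 0.98 and 0.97. Prrx1 and Sparc had 0.96 and 0.97, and Pdpn and Serpinf1 0.97 and 0.96. Other pairs turned. All pairs named here were picked after their values were seen. The receptor genes Pdgfra and Pdgfrb had an r of 0.76 over 6 tumours and -0.92 over 5, and Pdpn and Thbs2 had 0.20 and -0.94. Over all 6 tumours, the median r within role groups was 0.98 for the pair of lysyl oxidases, 0.81 for adventitial genes and 0.54 for elastic fibre genes. Their median r with genes of other roles was 0.80, 0.74 and 0.62. Without SG-/- replicate 1, Lox and Loxl1 had an r of 0.55, and the adventitial pairs ran from -0.37 to 0.88. Over all 6 tumours, Dpp4 did not follow the others, with a median r of 0.06 to the other 34.

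The spread within genotypes differed as well. The SD among SG-/- tumours exceeded that among SG+/- tumours in 31 of the 35 genes, or 88.6%, against 63.9% of all genes. The median SD was 0.52 in SG-/- and 0.21 in SG+/- tumours, against 0.22 and 0.16 over all genes. Dpp4, Tcf21, Postn and Cxcl12 were the genes with the larger SD in SG+/- tumours.

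SG-/- replicate 1 also exceeded the array nearest to it in spread and receptor level. Against SG+/- replicate 1, 34 of the 35 genes were higher, with a median of 0.84, while the median over all genes was 0.0031 and 50.5% were higher. Adjusted for the receptor mean per array, the median difference between genotypes was 0.37. With that covariate the differences were 1.2 for Dpt, 0.98 for Pi16, 0.59 for Fap and 0.70 for Postn, and none of the 35 genes passed the adjustment (lowest limma adjusted p among them 0.752). Across the 6 tumours, the r of single genes with the receptor mean ran from -0.86 to -0.12, so all 35 were negative. The share over all genes was not computed, so the sign cannot be read as a trait of these genes. Whether the spread of the arrays had a part in the differences was not tested, and 6 arrays leave the covariate fit imprecise.

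Other stromal genes moved with this tumour too. All 12 fibrillar and associated collagen genes were highest in SG-/- replicate 1, with a median of 1.10 above the SG+/- mean there and of -0.04 and 0.07 in the other SG-/- tumours. In 1 of the 12, or 8.33%, SG-/- replicates 1 and 2 were both above the other tumours, near the 11.0% of all genes. Col1a1 differed by 0.38 between genotypes. Of the other 50 fibroblast and matrix genes listed, 49 were measured, and 39, or 79.6%, had a positive difference (median 0.21), against 46.3% of all genes. Of the 49, 5 had an unadjusted limma p under 0.05, all higher, which is 10.2% against 1.43% of all genes, and 0 passed the adjustment. The lowest p values were those of S100a4, a calcium-binding protein of motile cells and macrophages, Nid1, a basement membrane linker, and Dcn, the proteoglycan decorin, with differences of 0.63, 0.79 and 0.93. Lum, which encodes lumican, differed by 0.75, and Fn1, which encodes fibronectin, by 0.05.

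Markers of other cell types were set beside the fibroblast genes, and their part in the differences was not tested. Medians relative to the SG+/- mean for 11 macrophage markers were 0.75, 0.40 and -0.02 in SG-/- replicates 1 to 3, with SG-/- replicates 1 and 2 above the other tumours in 9 of the 11. For 11 endothelial markers they were 0.50, 0.42 and 0.11, with the same tumours above the others in 8 of the 11. Those tumours were both above the others in 15.3% of genes above the dim level. The 12 pericyte and smooth muscle markers had 0.36, 0.15 and -0.14, and the 12 tumour epithelium markers 0.17, 0.04 and -0.15. Skeletal muscle markers, 9 genes, stood at 0.15, -0.71 and 0.53 in SG-/- tumours and at 0.24, -0.70 and 0.40 in SG+/- tumours. The 9 adipocyte markers stood at -0.12 and -0.34 in replicate 2 of SG-/- and of SG+/-, and from 0.09 to 0.45 in the other tumours. Mfap4 and Tnxb were lowest in the same pair of tumours as the muscle and fat markers. The 4 basal epithelium markers measured had differences from -0.57 to 0.35, with 3 higher and 1 lower, and medians of 0.18, 0.39 and -0.26 in SG-/- tumours and -0.20, 0.57 and -0.38 in SG+/- tumours.

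**Figure D5:**
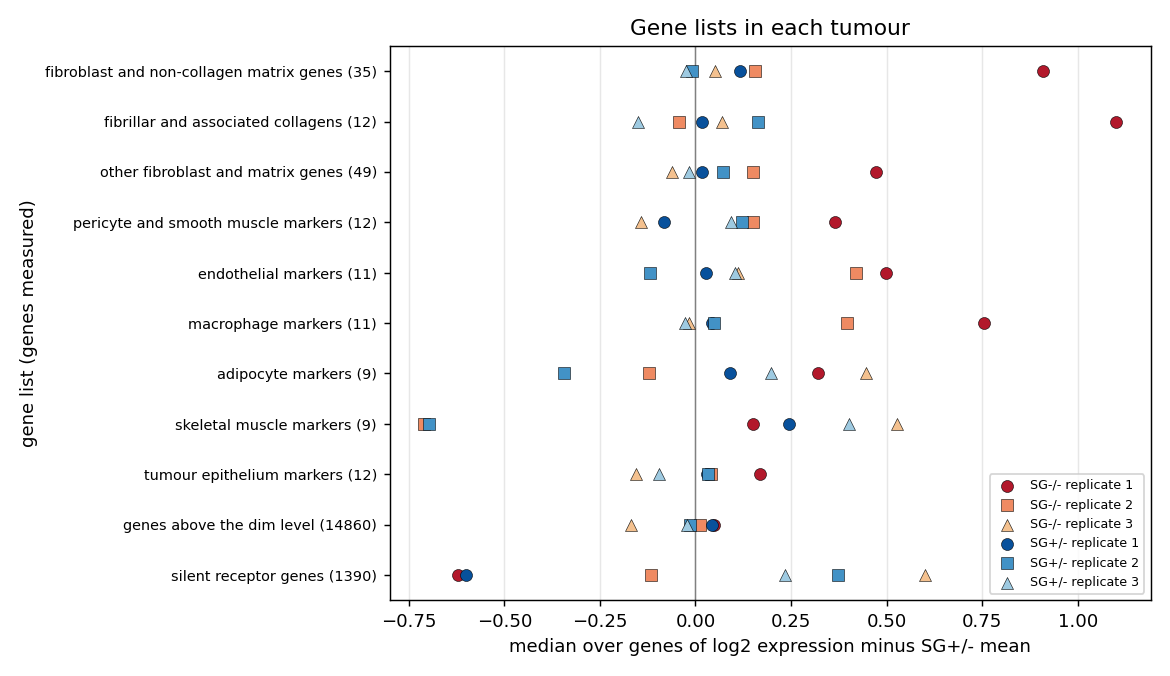
Median over the genes of each list of log2 expression minus the SG+/- mean (horizontal axis), with 1 point per tumour and lists on the vertical axis with their number of measured genes. SG-/- replicate 1 is at 0.91 for the fibroblast and matrix genes and 1.10 for collagens, while SG-/- replicate 2 is high for endothelial (0.42) and macrophage (0.40) markers and near 0 for collagens (-0.04).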

How the data were processed

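RNA from 6 snap-frozen mammary tumours, 3 per genotype, was measured on microarrays. The deposited values are log2 expression per probe set, which the authors obtained by robust multi-array averaging, per the design text. Affymetrix Expression Console and limma are among the tools in the submitters' notes, which give no versions. There were 33793 probe sets. The platform annotation gave 23521 probe sets 1 gene symbol, 1814 several and 8458 none, and the probe set with the highest mean was kept per gene, which left 22180 genes. The number of arrays limits the precision.

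SG-/- and SG+/- tumours were compared by a linear model with moderated variances, limma 3.58.1 (R 4.3.3), two-sided, Benjamini-Hochberg adjusted over all genes at 0.05. Alternatives were a dim-gene filter, a further quantile normalization, centring on brighter genes, trend and robust variances, array weights, averaging of probe sets, a receptor covariate and omission of each tumour. The test was checked on simulated data. No set test was run. Besides the label check, genes with values in every tumour were, per role group, the 3 with the lowest p and the one nearest 0, with Pdgfra and Cxcl12 added after their values were seen. The member genes, lists and alternatives were chosen with earlier results of these data known. Marker lists were named by symbol, with 4 older symbols (Ctgf, Cyr61, Wisp1 and Wisp2) updated through RefSeq.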

Additional observations from a re-analysis of the deposited data

How the results depend on the processing

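The median difference of the fibroblast and matrix genes stayed above 0 in all 13 alternatives that were tried, with a range from 0.17 to 0.55 when 1 tumour was left out. No gene of the list passed the adjustment in any of them. The number of genes called over all genes was 0, and 1 after adding the receptor covariate (Srgn, difference -1.53, limma adjusted p = 0.0446), and it ran from 0 to 1 when 1 tumour was left out. The number of listed genes with an unadjusted limma p under 0.05 was 3 as reported, all higher, against 1.43% of all genes on that side. It was 12 with array weights (6.75%), 11 with the receptor covariate (2.88%) and 7 after a further quantile normalization (1.5%). With arrays centred on their brighter genes it was 7 (1.74%), and with trend and robust settings 5 (1.40%). With 1 tumour left out, it ran from 1 (0.906%, without SG-/- replicate 1) to 12 (3.91%, without SG-/- replicate 3). The number with no overlap was 8 with arrays centred on brighter genes, all higher (3.32% of all genes). With 1 tumour left out, the number on the higher side ran from 5 (4.84%, without SG-/- replicate 1) to 15 (12.5%, without SG-/- replicate 3). The number higher in SG-/- tumours ran from 23 to 34. The median r between listed genes was 0.56 with arrays centred on brighter genes, where the median over all genes was 0.181, and from 0.087 to 0.81 with 1 tumour left out. The cause of these shifts was not tested. Directions turned in a few genes near 0. Fbln2 was 0.018 after quantile normalization and 0.066 with array weights, and Thbs2 was -0.028 with array weights. With 1 tumour left out, Fbln2 ran from -0.24 to 0.21, Thbs2 from -0.23 to 0.61, Clec3b from -0.13 to 0.29, Dpp4 from -0.26 to 0.11, Efemp1 from -0.061 to 0.70 and Loxl1 from -0.040 to 0.65. The count of all genes with an unadjusted p under 0.05, 469, was 2569 with array weights and 1039 with the receptor covariate. No paired analysis was possible because the labels give each tumour its own mouse and no number shared between genotypes.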
